A study of Homo sapiens with 15 samples.

Results

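Antisense noncoding genes are long noncoding genes named for a neighbouring gene on the other strand, with the suffix -AS and a number. Members were the genes with such a name in the deposited tables of both cell lines, after removal of the row suffix .primary, and OIP5-AS1 was left out. This gave 200 genes of the 12482 present in both tables. The name before -AS gives the sense gene, which had a row for 175 members in 22Rv1 and for 163 in LNCaP. RNA immunoprecipitation followed by sequencing was done in 2 human prostate cancer cell lines, 22Rv1 and LNCaP, fixed in 0.3% formaldehyde for 30 minutes at 4 degrees. In 22Rv1 there were 2 Brg1, 2 Sfpq, 3 IgG and 2 Input libraries, and in LNCaP 2 Brg1, 2 IgG and 2 Input libraries. The 15 libraries came from untreated cells, IgG being the antibody control and Input the RNA before precipitation. The labels give replicate letters but not whether they were separate cultures, so p-values measure only the spread between these libraries, which may be technical.

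Brg1, the SMARCA4 protein, drives nucleosome remodelling by the SWI/SNF complex with its ATPase, and Sfpq is a nuclear RNA-binding protein of paraspeckles with roles in splicing and transcription. Antisense noncoding RNAs often start near the promoter of the sense gene or overlap its body, and some of them are known to act on the expression of that gene. RNA immunoprecipitation recovers the RNA that stays with a protein after fixation, so a row's share of the reads is compared with its share in Input.

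The library kit keeps the strand, but whether the counting used it is not stated, so reads of an antisense gene that overlaps its sense gene cannot be assigned to either with certainty. Genes had a row with the suffix .primary, a row without it, called plain here, or both; the suffix is not explained in the sources used here. Of the members, 135 had only a .primary row in 22Rv1, 25 only a plain row and 40 both, and the LNCaP table held 132, 29 and 39. The same rows were present in both tables for 179 members.

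RefSeq (GRCh38.p14) held 198 of the 200 members, 166 under the same symbol and 32 under a synonym, and 133 could be placed against their sense gene. The pair stood head to head without overlap in 36 genes and with overlap in 41, tail to tail with overlap in 32 and without in 5. The antisense gene lay inside the sense gene in 14 and the sense gene inside the antisense gene in 5. In 33 of the 36 head-to-head pairs without overlap the starts lay within 1000 bases of each other. The next 3 promoter windows, 250 bases before to 50 after the RefSeq start, are shown because their genes carried large differences in the results and stand for 3 of these arrangements. Capitals mark the GC box, the letters GGGCGG, on the printed strand. MCM3AP-AS1 lies on the plus strand of chromosome 21 with its window at chr21:46228981-46229280 and overlaps MCM3AP tail to tail. TMEM147-AS1 lies on the minus strand of chromosome 19 with its window at chr19:35545980-35546279 and overlaps TMEM147 head to head. UBA6-AS1, named UBA6-DT in RefSeq, lies on the plus strand of chromosome 4 with its window at chr4:67701028-67701327, and the start of UBA6 lies 123 bases upstream of its own.
MCM3AP-AS1: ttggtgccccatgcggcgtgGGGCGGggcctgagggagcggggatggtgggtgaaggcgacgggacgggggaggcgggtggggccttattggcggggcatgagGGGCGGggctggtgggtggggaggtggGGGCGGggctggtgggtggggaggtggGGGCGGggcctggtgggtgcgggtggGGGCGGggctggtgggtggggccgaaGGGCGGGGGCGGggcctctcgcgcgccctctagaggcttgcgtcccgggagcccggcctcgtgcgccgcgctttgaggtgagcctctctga
TMEM147-AS1: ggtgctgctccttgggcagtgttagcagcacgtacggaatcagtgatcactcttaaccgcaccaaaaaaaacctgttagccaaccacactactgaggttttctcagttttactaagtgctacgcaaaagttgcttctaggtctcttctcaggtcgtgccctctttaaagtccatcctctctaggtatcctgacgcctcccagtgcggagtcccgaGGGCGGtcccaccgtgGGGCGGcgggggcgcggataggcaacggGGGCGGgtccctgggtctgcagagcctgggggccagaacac
UBA6-AS1: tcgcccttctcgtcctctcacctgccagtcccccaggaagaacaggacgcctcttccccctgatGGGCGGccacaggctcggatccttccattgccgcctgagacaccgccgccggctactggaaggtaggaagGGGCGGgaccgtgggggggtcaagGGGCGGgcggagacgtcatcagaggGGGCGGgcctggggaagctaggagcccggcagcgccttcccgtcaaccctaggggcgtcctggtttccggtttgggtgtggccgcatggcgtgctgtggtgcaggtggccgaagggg
The 3 windows hold 7, 3 and 4 GC boxes. In the shares that follow, the members had rows in both lines, while all windows covers RefSeq genes with or without a row here. The sets thus differ in more than the antisense name. Over both strands (GGGCGG or CCGCCC), a GC box was present in 57.7% of the 149 member windows in RefSeq, in 68.8% of the 77 windows of head-to-head pairs and in 44.6% of all 27305 windows. The CCAAT box (CCAAT or ATTGG), whose matches can share end letters with a GC box match and were counted separately, was present in 38.3%, 33.8% and 35.7%.

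Each deposited value was a whole multiple of the smallest value in its library, and these multiples, taken as reads, summed to 45259907 and 47531308 in the Brg1 libraries of 22Rv1, 16037423 and 47871438 in Input, and 7139669 and 7352226 in Sfpq. The IgG libraries of 22Rv1 held 490879 to 4424105 reads and those of LNCaP 22184 and 46297, against 6367908 to 7506724 in the other LNCaP libraries. Of the member rows, 68 to 125 of 240 had at most 3 reads in an IgG library of 22Rv1 and 211 and 231 of 239 in LNCaP, where IgG is therefore given as values only. As a check of the labels, the SMARCA4 row held 12446 and 16356 reads per 1000000 (RPM) in Brg1 of 22Rv1 and 310.0 and 296 in Input, but 7212 in 1 of the LNCaP IgG libraries, where Brg1 had 12763 and 10406. The plain SFPQ row had 826 and 735 RPM in Sfpq and 452 and 449 in Input. SFPQ.primary had 34.0 and 45.6 in Sfpq and 93.2 and 92.9 in Input. SMARCA4 had 486 and 492 in Sfpq, so the Sfpq labels have no check as clear as that of Brg1. Rows were present for 6 of 9 luminal prostate markers in 22Rv1 (none for KLK3, KLK2 and FOLH1) and for 9 of 9 in LNCaP, and for 1 and 2 of 8 markers of basal, blood, stromal and endothelial cells.

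The antisense genes together took a larger share of the reads with the Brg1 antibody than in Input. In 22Rv1 their summed share with Brg1 came to 0.661% ± 0.0199 (SD, n = 2). The Input share was 0.407% ± 0.0122 (SD, n = 2), which makes a ratio of 1.63. The 2 kinds of row moved apart, by a ratio of 2.01 for .primary rows and 0.766 for plain rows. In LNCaP the Brg1 libraries reached 0.564% ± 0.0388 (SD, n = 2). Input there had 0.447% ± 0.0452 (SD, n = 2), with ratios of 1.49 for .primary and 0.755 for plain rows. With Sfpq it was 0.366% ± 0.0316 (SD, n = 2), a ratio to Input of 0.900. The IgG libraries also lay above Input on average, at 0.514% ± 0.130 (SD, n = 3) in 22Rv1, where 1 of 3 lay below, and at 0.601% ± 0.130 (SD, n = 2) in LNCaP. The .primary rows of all genes took 64.2% of the reads in Brg1 of 22Rv1, 36.5% in Input, 30.4% in Sfpq and 53.7% in IgG, so the direction of the antisense .primary rows is shared with the table as a whole. Since these are shares of a library, more of a row and less of all others cannot be told apart, nor can RNA from fewer cells and less RNA per cell. With 2 libraries against 2, the smallest two-sided p of an exact permutation test is 0.333, so no test of these sums could pass 0.05.

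**Figure D1:**
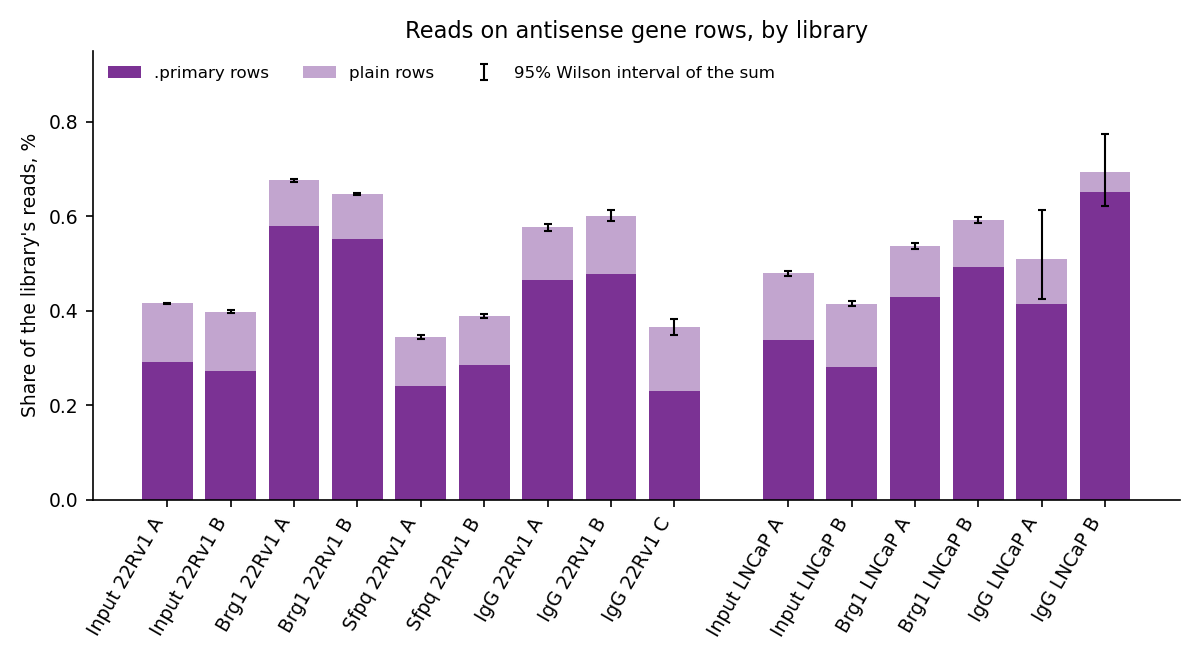
Share of all reads in each library (percent, vertical axis) on antisense .primary and plain rows, stacked, with the 95% Wilson interval of the sum, which covers counting error only. Both Brg1 libraries of each line stand above both Input libraries, and the IgG libraries are spread widely.

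For each row, the level was its RPM and the change the difference in mean log2(RPM + 0.5), with a standard error (SE) and a Benjamini-Hochberg adjusted p from limma over all rows of the table; the added 0.5 shrinks the change of low rows. In Brg1 against Input of 22Rv1, 114 of 175 antisense .primary rows (65.1%) rose and 11 fell, where 50.8% of all .primary rows rose and 9.47% fell. Their median log2 change was 0.97, against 0.54 over all .primary rows and 0.62 over the .primary rows of the sense genes. Of 65 antisense plain rows 27 fell and 13 rose, where 74.0% of all plain rows fell and 2.41% rose. Their median was -0.50 against -0.80 over all plain rows, and 102 of 140 plain rows of the sense genes fell. Rows of other noncoding genes also rose, with 132 of 163 LINC .primary rows (long intergenic noncoding genes) higher, median 1.23, and 11 of 12 of the IT and OT genes (intronic and overlapping transcripts), median 1.53. No test was made between these lists. The median over all rows was -0.26, and under the trimmed mean of M-values (TMM) it was -0.03; the antisense .primary median was then 1.18 against 0.77 over all .primary rows. On the scaling of the deposited values, whose basis is not given in the sources used here, the median over all rows was -0.69, and the antisense rows of both kinds split into 29 higher and 31 lower in place of 127 and 38. Over all rows of both kinds 27.5% rose and 40.5% fell in the main fit. The shares on the deposited scaling are not given here, so that split cannot be read as particular to antisense rows. When the 3 IgG libraries entered the fit in 22Rv1, 0 antisense rows were called (23 had an unadjusted limma p under 0.05), as were 13 of all 22542 rows. In this and the later fits with IgG the log2 changes stay the same. The IgG libraries enter only the estimate of the spread, so these fits do not compare an antibody with IgG.

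**Figure D2:**
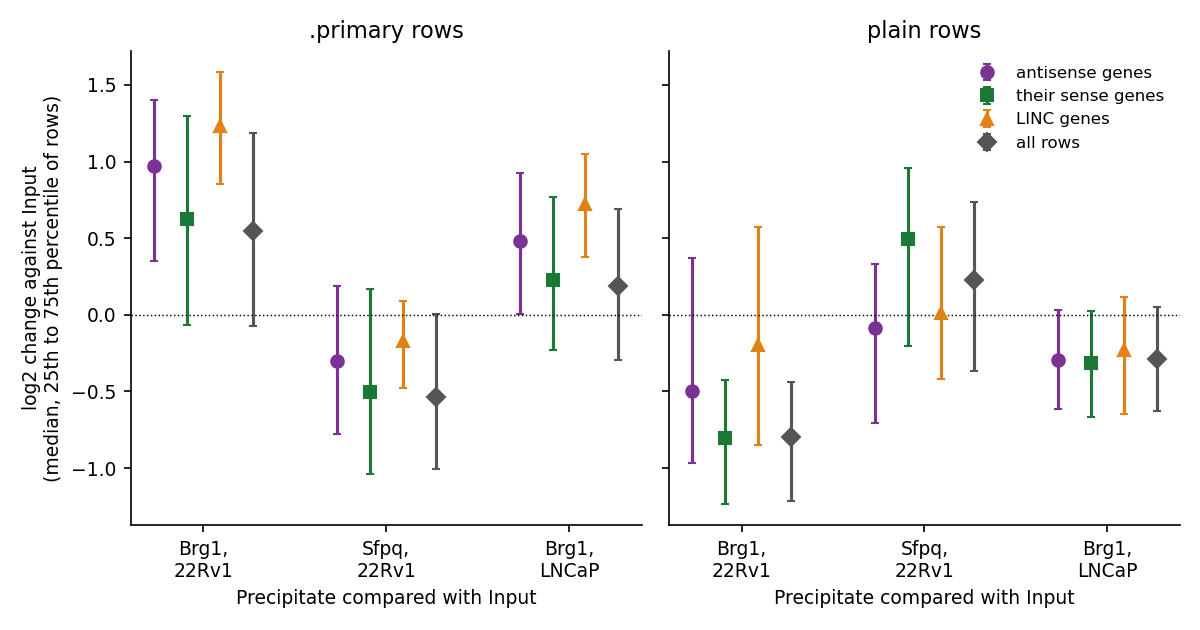
Log2 change against Input (vertical axis) of antisense, sense, LINC and all rows in 3 comparisons (horizontal axis), for .primary and plain rows. Points are medians and lines the 25th to 75th percentile. The median of antisense .primary rows lies above that of all .primary rows in each comparison. For Brg1 in 22Rv1 the median of antisense plain rows lies above that of all plain rows.

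Among the rows that rose most with Brg1 in 22Rv1 was MCM3AP-AS1.primary, the antisense partner of the gene of a nuclear mRNA export factor. Its level was 109 and 86.3 RPM in Brg1, 14.9 and 14.9 in Input, 17.4 and 16.1 in Sfpq, and 43.2, 48.0 and 10.2 in IgG. Brg1 lay above every other library, and 2 of the 3 IgG libraries also lay above Input. Its log2 change in Brg1 was 2.66 (SE 0.17, adjusted p = 7.91e-08), a 6.33-fold rise. ROR1-AS1.primary, from within the gene of a receptor for Wnt5a, had 26.6 and 21.9 RPM in Brg1 and 0.0209 and 10.0 in Input. The Input libraries of this row disagree, the first holding 1 read, and the log2 change of 3.40 (adjusted p = 0.0029) ran from 1.23 without Input A to 5.57 without Input B. TMEM147-AS1.primary had 8.60 and 10.8 RPM in Brg1 and 0 and 1.81 in Input, a log2 change of 3.24 (adjusted p = 0.000292) that was 2.13 without Input A. GAS6-AS1.primary, beside the gene of the ligand of the TAM receptor kinases, had 19.8 and 18.4 RPM in Brg1 against 2.13 and 4.68 in Input, a log2 change of 2.41 (adjusted p = 7.11e-06). NLGN1-AS1.primary, beside a synaptic adhesion gene, had 22.0 and 23.1 RPM against 3.47 and 4.49, a log2 change of 2.38 (adjusted p = 3.66e-06). In these last 2 rows both Brg1 libraries stood far above both Input libraries, while NLGN1-AS1.primary had 84.5 RPM in 1 IgG library and 0 in the other two.

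The plain rows that fell most included FGD5-AS1, an antisense gene placed tail to tail with FGD5, the gene of a Cdc42 exchange factor, without overlap. It had 4.54 and 8.73 RPM in Brg1, 52.2 and 59.8 in Input, 66.0 and 62.6 in Sfpq, and 49.9, 19.98 and 124 in IgG. Brg1 lay below every other library, with a log2 change of -3.05 (SE 0.23, adjusted p = 1.61e-07). Its .primary row also fell, by 1.10 on the log2 scale (adjusted p = 0.000436), and by 0.72 without Brg1 B. LRRC75A-AS1, listed by RefSeq as the small nucleolar RNA host gene SNHG29, had 42.2 and 42.6 RPM in Brg1 and 189 and 177 in Input, a log2 change of -2.09 (adjusted p = 1.48e-07). Its .primary row went the other way, with 95.2 and 116 RPM in Brg1 and 40.4 and 43.4 in Input, a log2 change of 1.32 (adjusted p = 8.77e-06). UBA6-AS1, head to head with the gene of a ubiquitin-activating enzyme, had 2.76 and 1.68 RPM in Brg1 and 8.77 and 8.92 in Input, a log2 change of -1.81 (adjusted p = 0.000276). The .primary row of UBA6-AS1, named after its values were seen, had 24.9 and 25.1 RPM in Brg1 and 7.54 and 7.61 in Input, a log2 change of 1.66 (adjusted p = 1.64e-05). OTUD6B-AS1, beside a deubiquitinase gene, fell by 1.76 on the log2 scale (adjusted p = 0.000311). ZNF710-AS1.primary had 0 and 5.28 RPM in Brg1 and 17.5 and 11.3 in Input, and its log2 change of -3.10 (adjusted p = 0.00151) ran from -4.87 to -1.34 when either Brg1 library was left out.

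**Figure D3:**
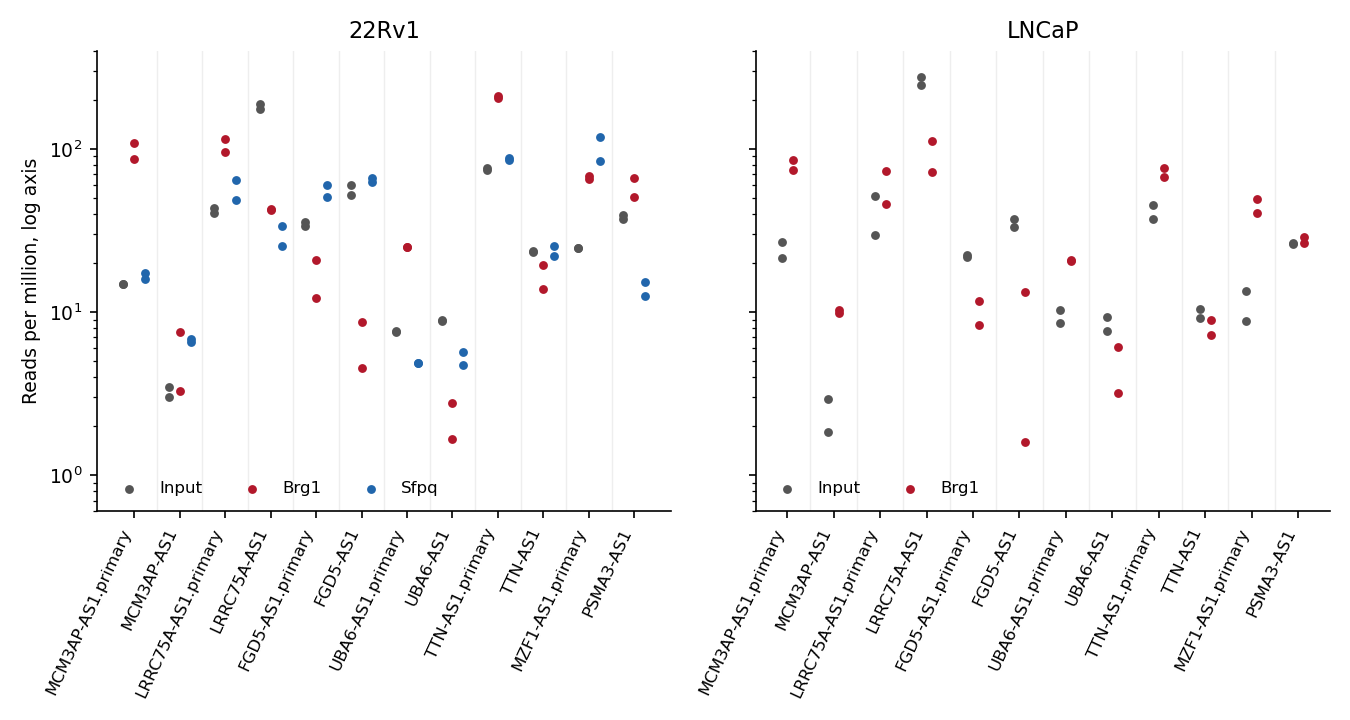
RPM (log axis) of named antisense rows in the Brg1, Sfpq and Input libraries, each point 1 library. The IgG libraries are not drawn. For MCM3AP-AS1.primary the Brg1 libraries of 22Rv1 stand above the Input and Sfpq libraries of that line, and for FGD5-AS1 they stand below.

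Of the 40 members with both rows in 22Rv1, 8 had a .primary row that rose and a plain row that fell with Brg1, 6 had both higher, 4 had both lower and 0 the reverse. The first pattern made up 20% of these members and 31.2% of the 8246 genes of the table with both rows. Both rows were higher in 15% of the members and 1.21% of these genes and both lower in 10% and 9.79%, and 4 of the 8246 genes had the reverse. The 8 genes were LOXL1-AS1, LRRC75A-AS1, PXN-AS1, TMEM147-AS1, TRAF3IP2-AS1, TTN-AS1, UBA6-AS1 and VASH1-AS1, named because the count is of single genes and after their values were seen. TTN-AS1, which overlaps the gene of the muscle protein titin tail to tail, had 211 and 206 RPM of its .primary row in Brg1 and 74.1 and 76.1 in Input, a log2 change of 1.47 (adjusted p = 4.41e-07). Its plain row had 13.8 and 19.5 RPM in Brg1 and 23.6 and 23.3 in Input, and its fall of 0.50 on the log2 scale (adjusted p = 0.0355) lost its call without Brg1 A or either Input library (largest adjusted p = 0.326). Counted as a share of the reads of these genes, the .primary rows in the Brg1 libraries held 71.5% ± 0.714 (SD, n = 2). The same share was 51.9% ± 1.04 (SD, n = 2) before precipitation, 54.8% ± 3.51 (SD, n = 2) with the Sfpq antibody and 52.2% ± 10.5 (SD, n = 3) with IgG. Over all genes with both rows the shares in Brg1, Input, Sfpq and IgG were 66.0%, 41.7%, 30.4% and 52.9%. Sfpq lay below Input over all genes but not over the antisense genes, a difference that was not tested. Gene by gene, the .primary share in both Brg1 libraries lay above both Input libraries in 28 of 40 antisense genes and below them in 5, where 80.9% and 3.36% of all genes did so. For Sfpq it lay above in 12 and below in 14, against 15.0% and 67.5% of all genes. In LNCaP the Brg1 share lay above in 14 of 39 and below in 7, against 40.4% and 15.0%. Of these 39 members, 0 had a .primary row that rose and a plain row that fell, against 4.22% of the 7993 genes with both rows. Both rows rose in 3, both fell in 2 and 1 had the reverse, against 0.450%, 2.06% and 0.163%.

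With Sfpq, more antisense .primary rows fell than rose. In Sfpq against Input, 23 of 175 .primary rows rose and 62 fell, where 11.7% of all .primary rows rose and 50.7% fell, and the median log2 change was -0.30 against -0.54. Of 65 plain rows 9 rose and 20 fell, where 37.8% of all plain rows rose and 20.1% fell, and the median was -0.09 against 0.22. Plain rows of the sense genes had 69 of 140 higher. This split depends on the scaling. Over both kinds 32 rose and 82 fell, where 24.3% of all rows rose and 35.9% fell. These counts became 46 and 64 under TMM and 52 and 59 under the median of ratios, and the antisense plain median turned positive, at 0.06 and 0.12, while all plain rows moved to 0.37 and 0.44. On the deposited scaling 5 rose and 70 fell. The shares of all rows called under these other scalings are not given here, so the counts cannot be read as particular to antisense rows. When IgG entered the fit 0 antisense rows were called (9 had an unadjusted limma p under 0.05), with 8 of all rows. Without Input A of 22Rv1, 69 rather than 114 antisense rows were called.

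MZF1-AS1.primary was among the rows that rose most with Sfpq. MZF1 encodes a zinc finger transcription factor and lies wholly inside MZF1-AS1 on the other strand. The .primary row had 84.5 and 118 RPM in Sfpq, 68.6 and 65.9 in Brg1, 24.9 and 24.6 in Input, and 101, 5.14 and 0 in IgG. Both antibodies lay above Input and the IgG libraries were spread widely, with log2 changes of 1.99 for Sfpq (SE 0.16, adjusted p = 8.26e-07) and 1.42 for Brg1 (adjusted p = 4.41e-06). SLC9A3-AS1.primary, beside a sodium-proton exchanger gene, had 38.7 and 69.9 RPM in Sfpq and 9.21 and 15.4 in Input, a log2 change of 2.08 (adjusted p = 2.16e-05), and 14.1 and 12.7 in Brg1. TMEM147-AS1.primary, with 4.62 and 13.1 RPM in Sfpq, rose by 2.96 on the log2 scale (adjusted p = 0.000733), or 1.85 without Input A. GAS6-AS1.primary, with 12.7 and 13.1 RPM, rose by 1.86 (adjusted p = 9.51e-05).

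The rows that fell most with Sfpq were led by LRRC75A-AS1, at 33.8 and 25.4 RPM, with a log2 change of -2.62 (SE 0.15, adjusted p = 5.94e-08). THAP9-AS1.primary, beside a gene derived from a transposase, had 6.58 and 8.43 RPM in Sfpq and 34.4 and 35.4 in Input, a log2 change of -2.15 (adjusted p = 1.89e-06). ZSCAN16-AS1.primary fell by 1.75 (adjusted p = 2.76e-05) and PAXIP1-AS1 by 1.71 (adjusted p = 0.000578). ZSCAN16 encodes a zinc finger protein and PAXIP1 a BRCT-domain protein of histone methyltransferase complexes. The plain GAS6-AS1 row had 4.90 and 0.544 RPM in Sfpq and 7.87 and 9.91 in Input, and its log2 change of -1.98 (adjusted p = 0.00765) rests on Sfpq B, without which it was -0.79 and not called; it was also not called without Input B (largest adjusted p = 0.0839). The Sfpq libraries of that row thus differ from each other more than Sfpq A differs from Input.

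Set directly against Sfpq in 22Rv1, Brg1 had higher shares of 138 of 175 antisense .primary rows and lower shares of 14, where 72.6% and 7.89% of all .primary rows were called. The median log2 difference was 1.20 against 1.14. Of 65 plain rows 17 were higher and 25 lower in Brg1, where 4.89% and 70.6% of all plain rows were called, and the median was -0.18 against -0.96. Over both kinds 155 were higher and 39 lower, where 40.0% and 38.1% of all rows were called. The members hold 175 .primary rows among 240, against 11687 among 22542 in the table, which alone shifts these counts. On the deposited scaling they were 109 and 12. The shares of all rows called on that scaling are not given here, so these counts cannot be read as particular to antisense rows. FGD5-AS1 was lower in Brg1 than in Sfpq by 3.25 on the log2 scale (log2 difference -3.25, adjusted p = 1.83e-08), PSMA3-AS1, beside a proteasome subunit gene, was higher by 2.03 (adjusted p = 1.05e-07), and ZSCAN16-AS1.primary was higher by 2.59 (adjusted p = 1.71e-07).

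In LNCaP, which has no Sfpq libraries here, 59 of 171 antisense .primary rows rose in Brg1 against Input and 8 fell, where 23.1% of all .primary rows rose and 8.19% fell. The median log2 change was 0.48 against 0.19. Of 68 plain rows 5 rose and 11 fell, where 2.1% of all plain rows rose and 20.1% fell, and the medians were both -0.29. Of 188 LINC .primary rows 77 rose, with a median of 0.72. These directions depend on the scaling, since on that of the deposited values the median over all rows moved from -0.09 to -1.46, and 0 antisense rows were higher and 154 lower in place of 64 and 19. Over all rows of both kinds 12.9% rose and 13.9% fell in the main fit. The shares on the deposited scaling are not given here, so those counts cannot be read as particular to antisense rows. The LNCaP fit gave every row the spread of the trend and not its own, and without Input B only 9 rather than 83 antisense rows were called, without Input A 31. When IgG entered the fit, 0 were called (41 had an unadjusted limma p under 0.05), with 15 of all rows.

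MZF1-AS1.primary rose most in LNCaP, with 40.7 and 49.1 RPM in Brg1, 13.5 and 8.79 in Input and 90.2 and 0 in IgG, where a single read is worth 45.1 and 21.6 RPM. Its log2 change was 1.99 (SE 0.26, adjusted p = 1.32e-11). MCM3AP-AS1 rose in both rows. The .primary row had 74.1 and 85.7 RPM in Brg1 and 26.9 and 21.4 in Input, a log2 change of 1.71 (adjusted p = 4.81e-09), and the plain row 10.4 and 9.82 against 1.84 and 2.93, a log2 change of 1.90 (adjusted p = 8.58e-05). FGD5-AS1 fell again, with 13.2 and 1.59 RPM in Brg1 and 33.5 and 37.0 in Input. Its Brg1 libraries differ widely but both lie below Input, and the log2 change of -2.74 (adjusted p = 7.82e-20) was -1.38 without Brg1 B. VPS9D1-AS1.primary had 26.5 and 21.7 RPM in Brg1 and 72.2 and 57.5 in Input, a log2 change of -1.41 (adjusted p = 2.81e-06). These 5 rows were the named LNCaP calls that held when any 1 library was left out, of 19. LRRC75A-AS1, with 111 and 71.7 RPM in Brg1 against 248 and 275, had a log2 change of -1.54 (adjusted p = 1.89e-07), which without Input B came to an adjusted p of 0.052. HLX-AS1.primary and GLYCTK-AS1.primary, beside a homeobox gene and a glycerate kinase gene, rose by 1.66 and 1.66 (adjusted p = 0.00201 and 0.00316), with adjusted p-values of at most 0.101 and 0.0605 when a single Input library was left out. OTUD6B-AS1 and PAXIP1-AS1 fell by 1.25 and 1.20, and were not called without Brg1 B or either Input library (largest adjusted p 0.491 and 0.134), the former at -0.69 without Brg1 B.

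The tables of the 2 lines were scaled separately and were not tested against each other. Across the 170 .primary rows in both tables, the Brg1 changes in the 2 lines had a Pearson r of 0.78 and a Spearman rho of 0.84, a description across rows that share libraries and are no replicates; over all 10023 shared .primary rows the values were 0.84 and 0.88. Of these antisense rows 57 (33.5%) rose in both lines, against 22.7% of all shared .primary rows, 4 (2.35%) fell in both, against 5.28%, and 0 were called in opposite directions, against 9 of the 10023. Of the 59 shared plain rows 3 (5.08%) rose and 10 (16.9%) fell in both, against 0.725% and 19.8% of all shared plain rows. Over all 229 shared rows, 136 differed from Input the same way with no overlap of the groups in either line and 7 in opposite ways, against 53.0% and 5.3% of all 19400 shared rows.

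**Figure D4:**
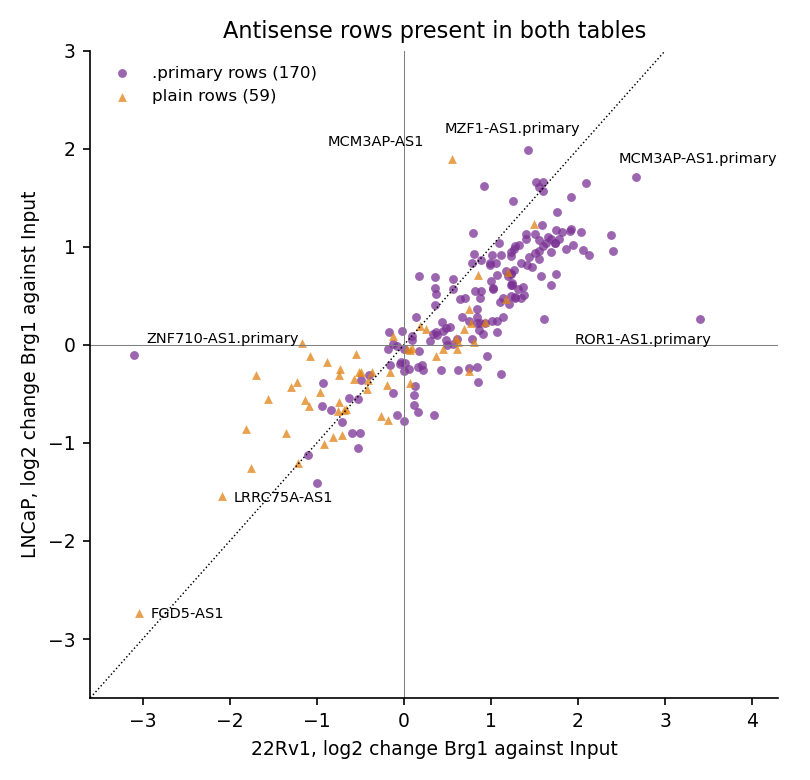
Log2 change in Brg1 against Input in 22Rv1 (horizontal axis) and LNCaP (vertical axis), each point 1 antisense row of the 170 .primary and 59 plain rows in both tables. MCM3AP-AS1.primary and MZF1-AS1.primary lie high in both lines and FGD5-AS1 low in both.

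Of a list of 15 well-studied antisense genes 8 were present in both tables, FGD5-AS1, MCM3AP-AS1, TTN-AS1 and PAXIP1-AS1 among them. EPB41L4A-AS1 had 4.42 and 6.81 RPM in Brg1 of 22Rv1 and 11.3 and 10.4 in Input, and its fall of 0.92 on the log2 scale (adjusted p = 0.0116) was not called without Brg1 A or Input A (largest adjusted p = 0.102). Its fall of 1.01 in LNCaP (adjusted p = 0.00384) was not called without Brg1 B or either Input library (largest adjusted p = 0.25), while its fall of 1.11 with Sfpq (adjusted p = 0.00429) was called under each omission. MAPKAPK5-AS1, beside a stress-activated kinase gene, fell by 1.56 with Brg1 in 22Rv1 (adjusted p = 0.000824), and its log2 change in LNCaP was -0.55 (adjusted p = 0.301). GABPB1-AS1, beside the gene of a transcription factor subunit, had a log2 change of 0.03 with Brg1 in 22Rv1 (adjusted p = 0.856) and -0.04 in LNCaP (adjusted p = 0.925), and fell by 1.27 with Sfpq (adjusted p = 1.01e-05). PSMA3-AS1 had 66.5 and 50.8 RPM in Brg1 of 22Rv1, 12.6 and 15.2 in Sfpq, 39.2 and 37.4 in Input and 40.0, 35.4 and 46.9 in IgG. Brg1 lay above and Sfpq below both controls, with log2 changes against Input of 0.60 (adjusted p = 0.00784, not called without Brg1 A or Input B, largest adjusted p = 0.117) and -1.43 (adjusted p = 1.35e-05). LRRC75A-AS1, EMC3-AS1.primary and TRAF3IP2-AS1.primary took the largest read shares of all members in Input of 22Rv1, not corrected for length. EMC3-AS1.primary had 112 and 110.0 RPM in Brg1 and 116 and 117 in Input, a log2 change of -0.07 (adjusted p = 0.625). TRAF3IP2-AS1.primary, beside the gene of an adaptor of interleukin-17 signalling, had 262 and 240.4 RPM in Brg1 and 89.8 and 81.2 in Input, a log2 change of 1.55 (adjusted p = 6.89e-07), and 316, 249 and 85.6 in IgG. Of its IgG libraries 2 of 3 reach the Brg1 level. In LNCaP the largest shares in Input after that of LRRC75A-AS1 were those of ZFPM2-AS1.primary, beside the gene of a GATA cofactor, and GAS6-AS1. ZFPM2-AS1.primary had 294 and 308 RPM in Brg1 and 171 and 141 in Input, a log2 change of 0.96 (adjusted p = 0.00238, not called when either Input library was left out, largest adjusted p = 0.37). The plain GAS6-AS1 row had 138 and 116 RPM in Brg1 against 137 and 114, a log2 change of 0.02 (adjusted p = 0.97).

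The antisense row and the row of the same kind of its sense gene were compared within each library as a log2 ratio, and the change of that ratio from Input was described without a test. In Brg1 of 22Rv1, the ratio was higher than in Input in 70 of 128 .primary pairs (median 0.14) and in 35 of 48 plain pairs (median 0.55). In Sfpq it was higher in 75 of 128 .primary pairs (median 0.14) and 15 of 48 plain pairs (median -0.60). In LNCaP the counts were 68 of 118 (median 0.13) and 27 of 51 (median 0.07). The changes of the .primary partners in Brg1 of 22Rv1 were weakly related, with a Pearson r of 0.16 and a Spearman rho of 0.26 across pairs. Both partners rose in 52 of the 128 pairs, the antisense row rose alone in 23 with the sense row not called, and in 5 the antisense row rose and the sense row fell. Both fell in 4, and in 3 the antisense row fell and the sense row rose. Taken singly, 65.1% of the 175 antisense and 53.1% of the 147 sense .primary rows rose, against 50.8% of all .primary rows. Whether partners rose together more often than unrelated rows was not tested.

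**Figure D5:**
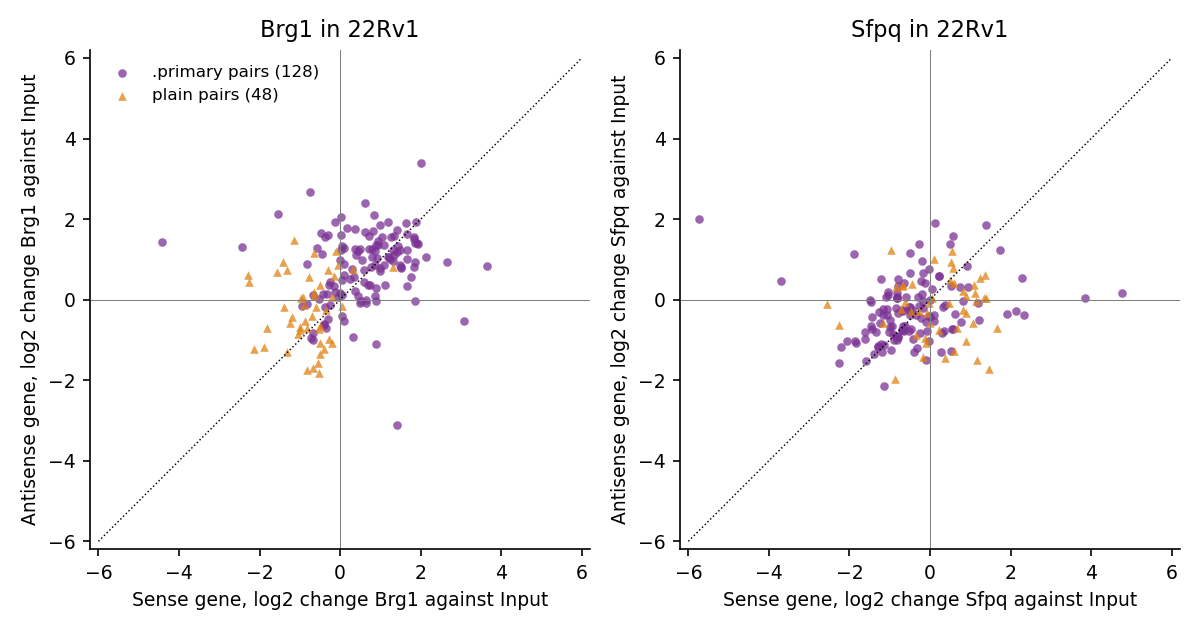
Log2 change against Input of the antisense row (vertical axis) and of the sense row (horizontal axis) for Brg1 and Sfpq in 22Rv1, each point 1 pair of the same kind, with a dotted line at equal change. For Brg1, 35 of 48 plain pairs and 70 of 128 .primary pairs lie above the line.

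MCM3AP was among the pairs with the largest difference in favour of the antisense row. MCM3AP.primary had 72.3 and 76.2 RPM in Brg1 of 22Rv1 and 130 and 118 in Input, while MCM3AP-AS1.primary rose. The log2 ratio of antisense to sense was higher in Brg1 than in Input by 3.40 in 22Rv1 and 2.88 in LNCaP. For MZF1 it was higher by 5.84 and 3.16, with MZF1.primary at 2.59 and 0 RPM in Brg1 of 22Rv1 and 25.6 and 26.3 in Input, and at 20.4 and 27.9 against 63.4 and 46.8 in LNCaP. In both pairs the genes overlap, the antisense row rose and the sense row was lower than Input in every Brg1 library. For LRRC75A-AS1 the difference of 3.76 in 22Rv1 rests on Brg1 B, where LRRC75A.primary had 0.0221 RPM against 28.3 in Brg1 A and 20.3 and 21.0 in Input, and it was 0.47 in LNCaP. In the other direction, ZNF710-AS1 had a difference of -4.52 in 22Rv1 and -1.21 in LNCaP, ZNF710.primary being at 154 and 137 RPM in Brg1 and 56.9 and 51.0 in Input of 22Rv1. The differences of -3.59 for CCDC183-AS1 in 22Rv1 and of -2.81 and -3.84 for CKMT2-AS1 in 22Rv1 and LNCaP rest on uneven sense rows. In 22Rv1 CCDC183.primary was at 8.19 and 0 RPM in Input and CKMT2.primary at 0.189 and 59.1 in Brg1. In LNCaP CKMT2.primary was at 1.26 and 49.9 RPM in Brg1. For CCDC183-AS1 the difference in LNCaP was -1.15. There CCDC183.primary had 14.3 and 24.1 RPM in Brg1 and 13.0 and 11.2 in Input, and CCDC183-AS1.primary had a log2 change of -0.55 (limma adjusted p = 0.138). In 22Rv1 CCDC183-AS1.primary itself fell by 0.52 (adjusted p = 0.0394) and CKMT2-AS1.primary, beside a mitochondrial creatine kinase gene, rose by 0.84 (adjusted p = 0.00304). The former was not called without Brg1 A, Brg1 B or Input A (change -0.32, largest adjusted p = 0.323), and the latter not without Brg1 A (change 0.42, adjusted p = 0.0699).

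By arrangement, the median log2 change of the .primary row in Brg1 was 1.20 in 22Rv1 and 0.64 in LNCaP for head-to-head pairs without overlap, and 1.12 and 0.51 for those with overlap. Antisense genes inside the sense gene had 1.24 and 0.28. Tail-to-tail pairs had lower medians, at 0.75 and 0.20 with overlap and -0.41 and -0.50 without, the last from 4 rows in each line and FGD5-AS1.primary among them. Members not placed had 0.97 and 0.55. The antisense genes were shorter than the table, with a median RefSeq span of 26851 bases for their .primary rows in 22Rv1 against 45310, and over all rows the median change was larger in longer genes. Within spans of up to 5000 bases, 5000 to 20000, 20000 to 50000 and longer, the antisense .primary medians in 22Rv1 were 0.62, 0.53, 0.92 and 1.23, from 12, 55, 45 and 61 rows. Over all .primary rows of these spans they were -0.12, -0.02, 0.26 and 0.96. The antisense median lay above that of all rows in each span, in LNCaP too, where it was -0.02, 0.11, 0.57 and 0.73 against -0.35, -0.20, -0.01 and 0.47. By mean level it lay above all rows at 5 RPM or more in 22Rv1, and at most 5 RPM it was 0.78 from 9 rows against 0.85.

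The IgG libraries of 22Rv1, the antibody control, were themselves compared with Input. No test set Brg1 or Sfpq against IgG. Against Input, 0 antisense rows rose by limma over all 9 libraries (7 had an unadjusted p under 0.05) and 31 fell, 21 of them .primary, where 0.633% of all .primary rows rose and 7.77% fell, and 0.0553% and 8.07% of all plain rows. DESeq2 gave 13 higher and 28 lower, edgeR with library totals 0 and 22 and edgeR with TMM 0 and 18. The medians were -0.97 for .primary rows and -1.62 for plain rows, against -0.76 and -1.46 over all rows. They include many rows at the floor, since 28, 69 and 87 of the 240 member rows had 0 reads in the IgG libraries. The summed antisense share was 0.576%, 0.601% and 0.365% in these libraries and 0.415% and 0.398% in Input, so the medians do not give the summed recovery. On the deposited scaling 239 of 240 antisense rows fell. On that scaling 1 read is worth 0.0428, 0.0934 and 0.597 in the IgG libraries and 1.05 and 2.37 in Input. The share over all rows is not given here, so this count cannot be read as particular to antisense rows.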

How the data were processed

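RNA immunoprecipitation sequencing was measured in 15 libraries. The values deposited by the authors, 1 table per cell line, are a scaled signal of counts divided by a library factor, per the file headers and the values; the submitters' processing notes name STAR 2.6, Salmon 0.8.2, deepTools 2.5.2, DESeq2 and hg38 without roles or order. Every value divided by the smallest positive value of its column came out whole within 0.001, and these recovered reads gave reads per 1000000 (RPM). limma 3.58.1 (R 4.3.3; trended empirical Bayes) was fitted over every row, without a filter on low values, on log2(RPM + 0.5), with an adjusted p threshold of 0.05. In 22Rv1 it took Brg1, Sfpq and Input (residual df 3, prior df 11.2), in LNCaP Brg1 and Input (residual df 2, prior df infinite), and for IgG all 9 libraries of 22Rv1. The script was tested on simulated data. Replicates were not duplicates (chi-square per df of at least 6.48).

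Members, lists and alternatives were chosen with earlier results of these data known. The named rows were a list of 15 well-studied genes, up to 5 rows each way per antibody (called, mean of at least 2 RPM, groups not overlapping), the 3 with the largest Input share per line, and up to 3 pairs each way; 1 row under this rule is not reported here. Alternatives were other pseudocounts, filters, scalings (TMM, median of ratios, deposited values), edgeR 4.0.16, DESeq2 1.42.0 and omitted libraries. A change is described as a rise or fall only at an adjusted p under 0.05. Intervals cover counting error only.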

Additional observations from a re-analysis of the deposited data

How the results depend on the processing

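Depth limits the IgG libraries most. Counts of antisense rows called are given in the order Brg1, Sfpq, Brg1 against Sfpq (22Rv1), Brg1 in LNCaP and IgG, where the main counts were 165, 114, 194, 83 and 31. On the deposited scaling they were 60, 75, 121, 154 and 239, with 0 higher in LNCaP. The shares of all rows called on that scaling are not given here. With IgG in the fit the first 4 were 0, 0, 2 and 0. Whether libraries with the same replicate letter belong together is not stated. Deviations of same-lettered libraries correlated at 0.0046, -0.045 and -0.13 in 22Rv1 and -0.33 in LNCaP. With 2 libraries per group, each value compares 1 A-to-B difference with another, so it cannot decide whether letters are paired. A replicate block gave 164, 114, 192, 22 and 86. The crossed pairing in LNCaP, added after the data were seen, gave 119. For IgG a mean of at least 5 RPM gave 10 and edgeR with TMM 18. Leaving out single libraries gave 131 to 168, 69 to 115, 166 to 188, 9 to 96 and 19 to 95. Robust empirical Bayes, added after the data were seen, gave 164, 119, 195, 83 and 31. The antisense medians moved with scaling: under TMM and median of ratios, Brg1 in 22Rv1 to 1.18 and 1.14 (.primary) and -0.27 and -0.31 (plain), Sfpq to -0.15 and -0.087 (.primary) and, reversed, 0.057 and 0.12 (plain), and LNCaP plain to -0.21 and -0.23. With a pseudocount of 2 the .primary medians were 0.84 for Brg1 in 22Rv1 and 1.04 for Brg1 against Sfpq. Without single libraries the medians ran from 0.95 to 0.99 (.primary) and -0.60 to -0.36 (plain) for Brg1 in 22Rv1, -0.38 to -0.21 and -0.16 to -0.053 for Sfpq, 1.05 to 1.29 and -0.31 to -0.022 for Brg1 against Sfpq, 0.38 to 0.66 and -0.38 to -0.23 in LNCaP, and -1.34 to -0.81 and -1.91 to -1.29 for IgG. Without the 3 most abundant rows the summed shares were 0.621% and 0.368% (Brg1 and Input, 22Rv1) and 0.512% and 0.392% (LNCaP). As a median over genes the .primary share was 72.5% in Brg1 and 54.1% in Input of 22Rv1, and 61.7% in Input of LNCaP. Pair medians with a pseudocount of 2 were 0.12 (.primary) and 0.51 (plain) for Brg1 and 0.20 for Sfpq .primary; with row kinds summed they were 0.55 for Brg1 and, reversed, -0.39 for Sfpq. Of the named rows 11 values reversed. On the deposited scaling LRRC75A-AS1.primary fell to -0.10 for Sfpq, and in LNCaP CKMT2-AS1.primary was at -1.15, GAS6-AS1 at -1.36, GAS6-AS1.primary at -0.40, LRRC75A-AS1.primary at -0.80, NLGN1-AS1.primary at -0.12, PSMA3-AS1 at -1.30, TRAF3IP2-AS1.primary at -0.30, TTN-AS1.primary at -0.57 and ZFPM2-AS1.primary at -0.42. ROR1-AS1.primary was at -1.79 in LNCaP without Brg1 A and at 2.32 without Brg1 B. The cause was not tested. Of 28, 19 and 19 named calls (Brg1 in 22Rv1, Sfpq, Brg1 in LNCaP), 20, 12 and 5 held under every omission of a library.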

Other observations

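The 7 antisense rows whose Brg1 libraries lay above Input without overlap in 1 line and below it in the other, named after their values were seen, were A1BG-AS1.primary, ATP6V0E2-AS1.primary, GATA2-AS1, H1FX-AS1.primary, TMLHE-AS1.primary, ZNF213-AS1.primary and ZRANB2-AS1.primary, out of 229 rows in both tables. All 7 were above Input in 22Rv1 and below it in LNCaP. Over all 19400 shared rows 5.3% went opposite ways without overlap, and their split by direction is not given here. ATP6V0E2-AS1.primary, beside the gene of a proton pump subunit, had log2 changes of 1.12 (limma adjusted p = 0.000942) and -0.30 (adjusted p = 0.51). GATA2-AS1, beside the gene of a transcription factor that acts with the androgen receptor, had 0.75 (adjusted p = 0.0136) and -0.27 (adjusted p = 0.462). ZNF213-AS1.primary was the row of these called in LNCaP, with 0.35 (adjusted p = 0.137) in 22Rv1 and -0.71 (adjusted p = 0.0303) in LNCaP. None of the 7 was called in both lines, and the difference between the lines was not tested.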
